A study of Mus musculus with 2 samples.

Results

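Ntrk2-negative general capillary endothelial cells were 167 of 986 cell barcodes in 2 lung libraries. They carried an endothelial gene panel, no UMI of Ntrk2 and UMIs of fewer than 2 of 7 aerocyte genes. A UMI, or unique molecular identifier, stands for 1 captured transcript. The members were chosen by their own transcripts. A barcode was taken when it had 200 to 6000 detected genes, at most 10% of its UMIs from mitochondrial genes, a UMI of at least 4 of 10 endothelial genes (Cdh5, Pecam1, Flt1, Cldn5, Kdr, Tie1, Egfl7, Ramp2, Tmem100 and Calcrl), 0 Ntrk2 UMIs and a UMI of fewer than 2 of 7 aerocyte genes (Car4, Ednrb, Fibin, Apln, Tbx2, Chst1 and Emp2). The Normoxia library gave 84 such cells and the Hypoxia library 83.

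The libraries were labelled as tdT cells sorted from lungs of NG2tdT mice, in which tamoxifen-activated Cre under the NG2 (Cspg4) promoter switches on tdTomato in pericytes and other NG2-expressing cells. Hypoxia mice breathed 10% oxygen (FiO2) for 21 days and Normoxia mice were labelled as not treated. Both groups were labelled NG2tdT. Mice used in the work were 2 to 4 months old. The study's text speaks of 3 WT animals under hypoxia and of depletion of CD45+ and CD326+ cells, whereas the labels name NG2tdT lungs and sorted tdT cells. How many animals went into each matrix is not given in the sources used here, and 1 library per group was analysed. With 1 library per group no test between groups could be made, so each difference is a difference between these 2 libraries, and the intervals (95%) cover counting error only. Cspg4 and Pdgfrb, which define pericytes, had 0 UMIs in the 167 cells, a count that allows up to 3 UMIs per library. Of 11 listed pericyte markers, 5 had a UMI in Normoxia (9 UMIs in 6 cells) and 7 in Hypoxia (10 UMIs in 8 cells). No cell had more than 2 of them.

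General capillary cells are the more abundant of the capillary endothelial types of the lung, and they act as a reserve for the wide, thin aerocytes over which gas exchange takes place. They are known for lipoprotein handling through Gpihbp1, for a diaphragm protein, Plvap, in their caveolae, and for a low level of MHC class II, the peptide-presenting molecules otherwise known from immune cells. Ntrk2 encodes TrkB, the receptor of the neurotrophin BDNF. A count of 0 for Ntrk2 does not show that a cell lacks its RNA. Among the 135 Hypoxia capillary cells with an Ntrk2 UMI, 40 had exactly 1.

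The cells with an endothelial panel numbered 127 in Normoxia and 260 in Hypoxia. The Ntrk2-negative cells were 66.1% of them in Normoxia (exact Clopper-Pearson interval 57.2% to 74.3%) and 31.9% in Hypoxia (26.3% to 38.0%). Cells with an Ntrk2 UMI were 13 and 135, and aerocyte-like cells, with 2 or more aerocyte genes, were 30 and 42. The rule used Ntrk2, so these shares are a description. Normoxia cells held 198388 UMIs (median 2192.5 per cell) and Hypoxia cells 207081 (median 2122). A mitochondrial share above 5% was seen in 13 Normoxia cells and in 25 Hypoxia cells. The ratios were also computed with a 5% maximum, which left 71 Normoxia and 58 Hypoxia cells. No further test of this difference was made. Of 2 barcodes found in both libraries, 1 belonged to a member. At the edge of the rule, 2 Normoxia and 6 Hypoxia cells had exactly 4 panel genes, and 5 and 6 otherwise eligible cells had 3.

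The label was checked against markers, and it covered a mixture. At least 3 of 12 general capillary markers were found in 82 of 84 Normoxia and 70 of 83 Hypoxia cells, although Glp1r had 0 UMIs in the members. Aerocyte markers outside the rule were also present. At least 2 of 8 such markers were found in 62 Normoxia and 38 Hypoxia cells, and at least 4 in 17 and 2. Cells with at least 4 of 9 lymphatic markers were 5 in Normoxia and 7 in Hypoxia, and they held 676 of the 678 and 1157 of the 1160 UMIs of Ccl21a, the chemokine of lymphatic endothelium. Cells with at least 6 of 12 arterial markers were 4 and 4, and cells with at least 4 of 12 venous markers were 3 and 7. The remaining cells, 72 and 63, stayed under these minimums and under 3 markers of any non-endothelial class (red blood cells aside). These minimums were chosen after the values had been seen. Ccl21a is itself a lymphatic marker of the list, Mgp and Cxcl12 are listed as arterial, and Vwf and Vcam1 as venous. Where the UMIs of these genes lie therefore follows in part from how the classes were defined.

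**Figure D1:**
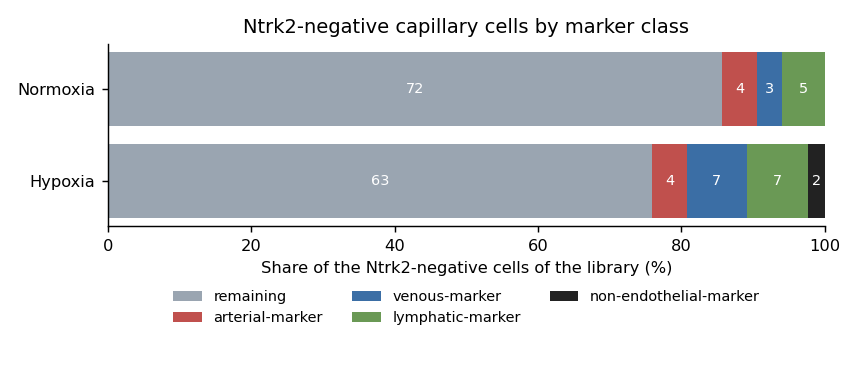
Stacked bars give the share of the Ntrk2-negative cells of each library (%) in each marker class, with the number of cells printed on each segment. The remaining cells are 72 of 84 in Normoxia and 63 of 83 in Hypoxia, and 2 non-endothelial-marker cells appear in Hypoxia and 0 in Normoxia.

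The 2 Hypoxia cells with at least 3 markers of a non-endothelial class included 1 that stood far apart. It had 27369 UMIs, 13.2% of the Hypoxia total, against a highest value of 5209 in Normoxia. It had a UMI of exactly 4 panel genes and carried 7 of 8 club or ciliated cell markers, and 14567 of its UMIs were of Scgb1a1, the secretory protein of club cells, 99.8% of the Hypoxia sum of that gene. Pecam1 and Cdh5 had 0 UMIs in it. Leaving it out raised the log2 ratio of each gene absent from it by 0.20. The median log2 ratio of compared genes was -0.18 with it and -0.06 without it. Differences in the text are log2 ratios of Hypoxia over Normoxia CPM (UMIs of a gene per 1000000 UMIs of the members) over all members. Named ratios that cross 2-fold without this cell are stated. The second non-endothelial-marker cell had 5015 UMIs and stayed in the ratios with and without the first. Of the Hypoxia members, 1 had 8 of 12 T or NK markers. By the class rules it is 1 of these 2 cells, unless it is a lymphatic-marker cell.

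Among 1813 genes whose UMIs summed to 40 or more, 42 had a ratio of at least 2-fold higher in Hypoxia (2.32% of the genes compared) and 109 were at least 2-fold lower (6.01%). Without the club-marker cell the numbers were 47 of 1765 (2.66%) and 62 (3.51%). Of the 42 genes, 15 had more of their Hypoxia UMIs in 1 cell than the named-gene rule allows, in 11 cases the club-marker cell.

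MHC class II genes were higher in Hypoxia. The class II heterodimers display peptides from outside the cell to CD4+ T cells, and Cd74, the invariant chain, guides them through the cell. All 6 compared genes of the list were at least 2-fold higher, beside 2.32% of all compared genes. Their median log2 ratio was 1.83, beside -0.18 for all compared genes. The list has 7 genes. The promoters of H2-Aa and H2-Eb1 are shown because CIITA, the master regulator of these genes, acts through an upstream X and Y box; the sequences are from RefSeq, build GRCm38.p6, 150 bases before the gene start, 5′ to 3′ on the coding strand.
H2-Aa (chr17:34287824-34287973, minus strand): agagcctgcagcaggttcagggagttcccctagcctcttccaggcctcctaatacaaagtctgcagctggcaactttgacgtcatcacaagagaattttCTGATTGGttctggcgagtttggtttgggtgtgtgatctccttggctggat
H2-Eb1 (chr17:34305717-34305866, plus strand): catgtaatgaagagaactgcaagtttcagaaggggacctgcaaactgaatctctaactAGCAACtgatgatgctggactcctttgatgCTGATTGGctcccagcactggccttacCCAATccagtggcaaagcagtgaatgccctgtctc
Capitals mark CTGATTGG, the letters of a Y box, AGCAAC, part of an X box, and CCAAT, searched on both strands; CTGATTGG holds the reverse of CCAAT. CTGATTGG began 51 bases before the start of H2-Aa and 62 before that of H2-Eb1, and AGCAAC began 92 bases before the start of H2-Eb1. Over 32851 promoter windows of the same length, 3.16% held CTGATTGG, 7.75% AGCAAC and 24.5% CCAAT. Of the 7 genes, 4 had an entry in the table. The window of H2-DMb1 held CCAAT alone of these letters and the 2 windows of H2-DMa held none of them, and a match in these letters is a description, not a shown site.

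Cd74 (chromosome 18) had 118 UMIs in 32 of 84 Normoxia cells and 894 UMIs in 68 of 83 Hypoxia cells. That was 595 CPM (exact Poisson interval 492 to 712) and 4317 CPM (4039 to 4610), a log2 ratio of 2.86 (exact conditional interval 2.58 to 3.15). The median cell had 0 Cd74 UMIs in Normoxia, where the highest had 17, and 6 in Hypoxia, where the highest had 51. The ranges overlapped, since 15 Hypoxia cells had no Cd74 UMI.

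The 3 classical chains had smaller ratios than Cd74. H2-Ab1, a beta chain (chr17:34257689-34269419), had 80 UMIs in 32 Normoxia cells and 243 in 59 Hypoxia cells, a log2 ratio of 1.54 (1.17 to 1.92). H2-Aa, an alpha chain, had 55 UMIs in 27 cells and 204 in 56 cells, a log2 ratio of 1.83 (1.39 to 2.29). H2-Eb1 had 37 UMIs in 21 cells and 138 in 49 cells, with 1.84 (1.30 to 2.40). All 3 were found in a larger share of cells in the Hypoxia library, and the intervals of H2-Ab1 and Cd74 did not overlap.

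H2-DMa and H2-DMb1 encode the peptide editor that loads class II molecules. H2-DMa had 6 UMIs in 6 Normoxia cells and 41 in 27 Hypoxia cells (2.71, 1.47 to 4.24), and H2-DMb1 had 18 UMIs in 13 cells and 45 in 30 cells (1.26, 0.44 to 2.14). Ciita, the transcriptional coactivator of the class, was sparse, with 1 Normoxia UMI against 12 from Hypoxia, and lay under the minimum for comparison. H2 genes are near-identical in places, so reads may be divided between them.

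The share of cells with class II transcripts was higher in Hypoxia at equal depth too. After thinning each cell to 1000 UMIs, which left out 9 Normoxia and 12 Hypoxia cells, Cd74 was detected in 34.7% of 75 cells from Normoxia (interval 24% to 46.5%) and in 71.8% of 71 from Hypoxia (59.9% to 81.9%). Without thinning the shares were 38.1% and 81.9%. In T cells of the same libraries, which should lack class II, Cd74 was found in 1 of 11 Normoxia and 8 of 58 Hypoxia cells, with median depths of 3525 and 3150.5 UMIs. The T cell shares were 9.09% (0.23% to 41.3%) and 13.8% (6.15% to 25.4%), and the Normoxia interval, from 11 cells, includes the share of the Normoxia members. At least 3 class II genes were found in 24 Normoxia cells (28.6%) and in 56 Hypoxia cells (67.5%), and no T cell had 3. The lymphatic-marker cells held few, with 1 class II UMI in 5 Normoxia cells and 9 in 7 Hypoxia cells. Macrophages, monocytes and B cells also carry class II. Of 12 macrophage or monocyte markers, 6 had a UMI in Normoxia and 5 in Hypoxia, with 27 and 62 UMIs in all, and no member had more than 2 of them. Csf1r and Adgre1, which define macrophages, and Ms4a1, of B cells, were at 0 in both libraries, and the B cell markers had 3 and 4 UMIs in all. Among the remaining cells the ratio of Cd74 was 3.48 (3.18 to 3.80).

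General capillary markers had lower ratios than the median gene over all members, but not in each alternative set of cells. The median log2 ratio of the 11 compared general capillary markers was -0.74, beside -0.18 for all genes. Of these markers 3 were at least 2-fold lower and none higher, beside 6.01% and 2.32% of all compared genes. Without the club-marker cell the median was -0.55, and among the remaining cells -0.41. It was -0.18 when Ntrk2 was not used to choose cells. A stricter subset had 19 Normoxia and 21 Hypoxia cells. These had 2 or more general capillary markers and fewer than 2 each of the arterial, venous and lymphatic ones. The median in the subset was -0.19, and the markers measured here partly chose its cells.

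Plvap, the diaphragm protein (chr8:71497765-71511752), had 389 UMIs in 66 Normoxia cells and 131 UMIs in 41 Hypoxia cells, which was 1961 and 633 CPM. The median was 3 UMIs per cell in Normoxia and 0 in Hypoxia. The log2 ratio was -1.63 (-1.93 to -1.34), and -1.43 without the club-marker cell. After thinning, Plvap was detected in 76.0% of Normoxia and 42.3% of Hypoxia cells, and 0 of 11 and 0 of 58 T cells had it.

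Hpgd, the enzyme that inactivates prostaglandins (chr8:56294585-56321043), had 538 UMIs in 70 Normoxia cells and 138 UMIs in 44 Hypoxia cells. The median cell had 4 UMIs in the Normoxia library and 1 in the Hypoxia library. The log2 ratio was -2.02 (-2.31 to -1.75). Among the remaining cells, which stayed under the marker minimums, the ratios of Plvap and Hpgd were -1.81 (-2.20 to -1.43) and -1.56 (-1.87 to -1.26). In the stricter subset Plvap had -2.37 and Hpgd -0.89, which is under 2-fold. Both genes are among the markers by which that subset was chosen. Among other capillary markers, Kit, the stem cell factor receptor, had -1.23 (-2.18 to -0.35), and Gpihbp1, which carries lipoprotein lipase to the lumen, -0.45 (-0.67 to -0.22). Among the remaining cells Kit had -0.77 (-1.71 to 0.12) and Gpihbp1 -0.04 (-0.28 to 0.20), and both intervals hold 0. Gpihbp1 was found in 74 of 84 and 61 of 83 cells. Cd36, a fatty acid transporter, had 332 and 161 UMIs, a ratio of -1.11 (-1.39 to -0.83), and -0.98 without the club-marker cell. Among the remaining cells Cd36 had -0.69 (-0.99 to -0.40).

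**Figure D2:**
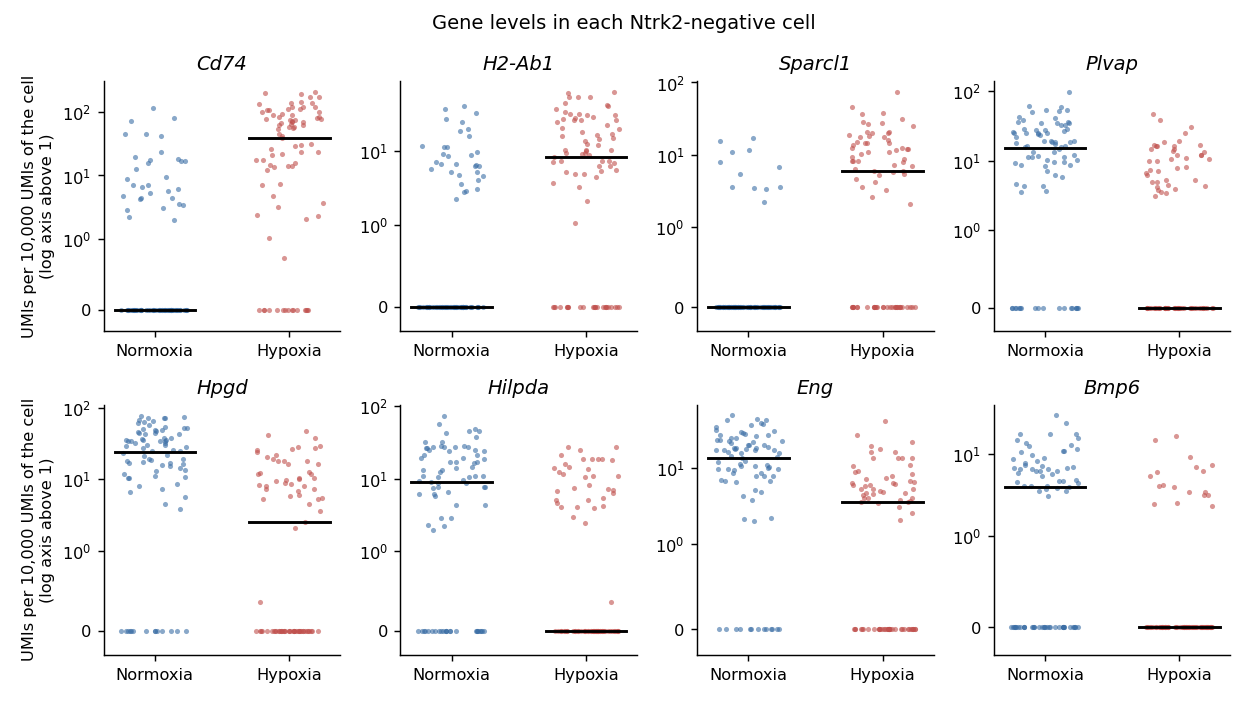
Each point is 1 cell, the horizontal axis gives the library and the vertical axis the UMIs of the gene per 10000 UMIs of that cell, on a log axis above 1; black lines are medians. Cd74, H2-Ab1 and Sparcl1 have medians at 0 in Normoxia and above 0 in Hypoxia, while Plvap, Hilpda and Bmp6 have medians above 0 in Normoxia and at 0 in Hypoxia.

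BMP and TGF-beta genes, whose receptors and ligands keep lung endothelium quiescent, had a median log2 ratio of -0.84 over 13 compared genes, of which 4 were at least 2-fold lower and none higher. It was -0.85 without Tmem100, which the rule used. Without the club-marker cell the median was -0.64 and 2 were 2-fold lower. Of all compared genes, 6.01% were 2-fold lower with that cell and 3.51% without it. Bmp6, a ligand, had 93 UMIs in 47 Normoxia cells and 24 in 18 Hypoxia cells, a log2 ratio of -2.02 (-2.73 to -1.36). Eng, the co-receptor endoglin, had 283 UMIs in 71 cells and 104 in 47 cells, a log2 ratio of -1.51 (-1.84 to -1.18). The receptors Acvrl1 (-0.89, -1.18 to -0.61) and Bmpr2 (-0.84, -1.26 to -0.43) had smaller ratios. Of the target genes, Id1 had 112 and 123 UMIs (0.07, -0.31 to 0.46) and Id3 had 223 and 251 (0.11, -0.16 to 0.38). Among the remaining cells Id3 had 0.41 (0.12 to 0.71), Id1 0.18 (-0.27 to 0.63), Acvrl1 -0.56 and Bmpr2 -0.66. Bmp6 (-1.85) and Eng (-1.49) stayed past 2-fold lower there. The inhibitor Smad6 had 69 and 34 UMIs, -1.08 (-1.72 to -0.47), and -0.92 without the club-marker cell.

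Hypoxia-inducible genes had ratios in both directions. Epas1, which encodes HIF2α, had 328 and 258 UMIs in 75 and 69 cells, a log2 ratio of -0.41 (-0.65 to -0.17), and Hif1a had 12 and 7. In the stricter subset Epas1 had the opposite sign, 0.71. The hypoxia-induced list of 26 genes had 5 compared members with a median of 0.05. Hilpda, a lipid droplet protein that restrains lipolysis and a known HIF target, had the lowest ratio of them, with 252 UMIs in 60 Normoxia cells and 83 in 35 Hypoxia cells. Its log2 ratio was -1.66 (-2.04 to -1.30), and its share of cells with a UMI after thinning was 56.0% and 33.8%. Selenbp1 was higher (2.86), but the club-marker cell held 81.6% of its Hypoxia UMIs, and without that cell it had 0.63. Mif had 0.98, and 1.10, past 2-fold, without the club-marker cell. Bnip3l had 0.05 and Higd1a -0.18. The glycolysis list had a median of 0.12 over 8 compared genes. Ldha, lactate dehydrogenase, had 38 and 66 UMIs (0.73, 0.14 to 1.35), and Aldoa, aldolase, 87 and 136 (0.58, 0.18 to 0.99).

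Sparcl1, a matricellular protein (chr5:104079111-104113733), was found in 12 of 84 Normoxia cells with 26 UMIs and in 51 of 83 Hypoxia cells with 148 UMIs. Its log2 ratio was 2.45 (1.84 to 3.11), and after thinning 9.33% and 47.9% of cells had a UMI. T cells had a UMI in 0 of 11 and 4 of 58. Cdk19, a kinase of the Mediator complex, had 9 UMIs in 7 cells and 40 in 23 cells, with 2.09 (1.02 to 3.32). Vwf, the clotting factor of larger vessels, had 44 and 161 UMIs in 13 and 17 cells. Of these, venous-marker cells, 3 and 7 in number, held 27 and 68, arterial-marker cells 5 and 45, and the remaining cells 12 and 46, the last in 5 cells.

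A few strongly expressed genes came from few cells. Mgp, an inhibitor of calcification marking arterial endothelium, had 29 UMIs in 11 Normoxia cells and 348 in 16 Hypoxia cells, of which 1 cell gave 169 and the 4 arterial-marker cells 154. Igfbp7, a secreted binder of IGF, had 367 UMIs in 38 Normoxia cells and 89 in 29 Hypoxia cells, and 1 Normoxia cell gave 145 of the 367. Igfbp5, of the same family, had 1 and 55 UMIs, the latter in 7 cells, and the lymphatic-marker cells held 46 of the 55.

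**Figure D3:**
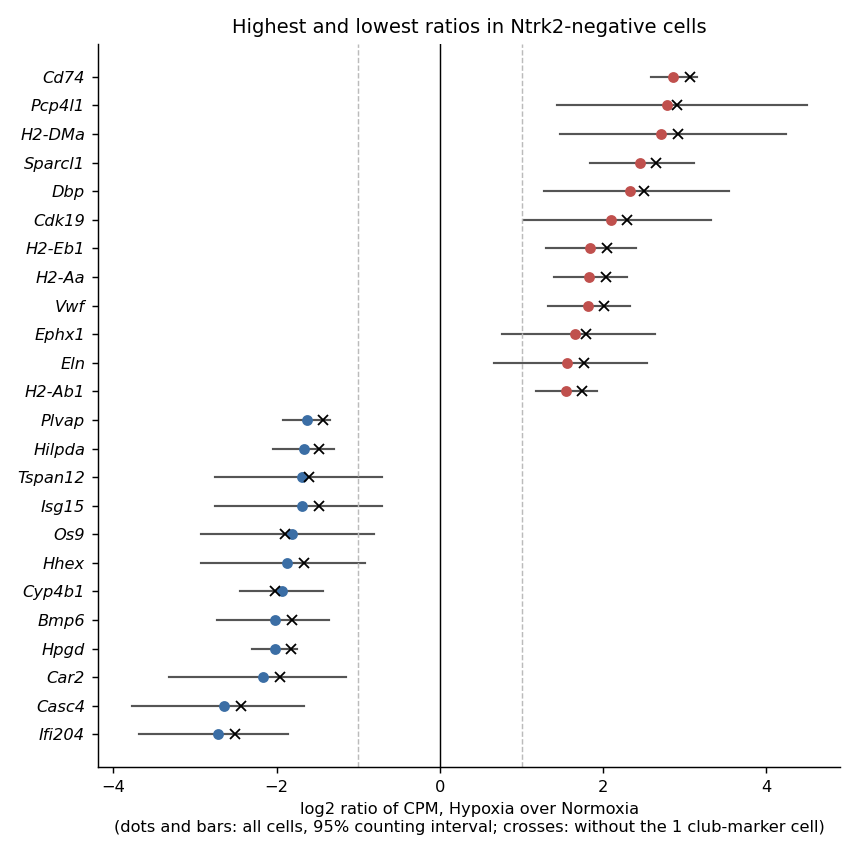
Dots give the log2 ratio of CPM (horizontal axis) of the 12 highest and 12 lowest genes (vertical axis), bars the 95% counting interval, and crosses the ratio without the club-marker cell. Cd74 is the highest at 2.86 and Ifi204 the lowest at -2.72, and each cross lies on the same side of 0 as its dot.

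Other genes among the 12 highest were Pcp4l1, 5 and 36 UMIs, Dbp, a clock-controlled transcription factor, with 9 and 47, Ephx1, an epoxide hydrolase, with 14 and 46, and Eln, elastin, with 14 and 43. Among the 12 lowest, Ifi204, an interferon-inducible DNA sensor with close paralogs, had 82 and 13 UMIs, and Isg15, a ubiquitin-like interferon-induced protein, had 37 and 12. Car2, carbonic anhydrase, had 43 and 10. Cyp4b1, a cytochrome P450 listed as an aerocyte gene, had 157 and 43. Hhex, a homeobox factor, had 42 and 12, and Tspan12, a tetraspanin of Wnt signalling, had 37 and 12. Casc4 had 60 and 10 UMIs and Os9, of the endoplasmic reticulum, 37 and 11. These genes rest on few UMIs, and their intervals are correspondingly wide. Eln, Hhex and Isg15 had the opposite direction in the stricter subset, and Dbp (0.35) and Tspan12 (-0.38) were there under 2-fold.

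The interferon list had a median of -0.34 over 17 compared genes, with 1 higher and 4 lower 2-fold. Without the club-marker cell 1 remained lower 2-fold and the median was -0.15. Of all compared genes, 2.32% were higher and 6.01% lower 2-fold, or 2.66% and 3.51% without that cell. MHC class I genes had a median of -0.20 over 17, with none past 2-fold. B2m, the class I light chain, had 794 and 809 UMIs. Immediate early genes had a median of -0.55 over 13, and Jun, a subunit of the AP-1 factor, had 276 and 143 UMIs (-1.01, -1.31 to -0.71), or -0.82 without the club-marker cell. Oxidative phosphorylation genes had a median of -0.22 over 64 genes. Mitochondrially encoded genes had 0.26 over 12. Red blood cell genes, which free RNA can bring in, had 615 and 251 CPM in all, and their part in these results was not tested.

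Lists that hold genes of the selection rule are given here without them. The VEGF and angiopoietin list had 7 other compared genes, none past 2-fold, with a median of -0.32, or -0.11 without the club-marker cell. Tek, the angiopoietin receptor, had 102 and 63 UMIs (-0.76, -1.23 to -0.29). The Notch and arterial list had a median of -0.19 over 9 genes. Its only gene past 2-fold was Nrarp, a Notch feedback inhibitor, with 31 and 15 UMIs (-1.11, -2.10 to -0.18). Among 15 junction genes the median was -0.22, or -0.03 without the club-marker cell, and Jam2, a junctional adhesion molecule, was the only one past 2-fold (1.10, 0.24 to 2.02; 17 and 38 UMIs). Caveola and diaphragm genes had a median of -0.59 over 9 genes, of which 1, Plvap, was 2-fold lower. Cav1, the main caveolin, had 303 and 262 UMIs (-0.27, -0.52 to -0.03), and Cavin1, its partner, 97 and 137 (0.44, 0.05 to 0.83).

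Among vasoactive genes the median was -0.37 over 8, and Ddah2, which degrades inhibitors of nitric oxide synthesis, was at -1.02, or -0.82 without the club-marker cell. Lipid uptake genes had -0.45 over 7, of which Cd36 alone was past 2-fold. Chemokine and adhesion genes had 0.23 over 8, with Vwf past 2-fold higher and Vcam1, a leukocyte adhesion molecule, past 2-fold lower at -1.40, but 1 venous-marker cell gave 89 of the 91 Normoxia UMIs of Vcam1. Ace, angiotensin-converting enzyme, had 141 and 182 UMIs (0.31, -0.02 to 0.63), and Edn1, an endothelin, 108 and 114 (0.02, -0.38 to 0.41). KLF and shear genes had a median of -0.09 over 10, or 0.12 without the club-marker cell, and Klf2, a factor that flow induces, had 661 and 448 UMIs (-0.62, -0.80 to -0.45). Basement membrane and matrix genes had 0.12 over 10, and Col4a1, of the collagen IV sheet, had 64 and 93 UMIs (0.48, 0.00 to 0.96). Heat shock genes had 0.50 over 10, with Hspa1a 2-fold lower at -1.02 (-1.90 to -0.19; 37 and 19 UMIs). Without the club-marker cell Hspa1a was at -0.82, under 2-fold, and 2 other genes were past 2-fold higher. Only 3 cell cycle genes were deep enough to compare.

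The junction genes Cdh5 and Pecam1, on which the rule drew, had 326 and 225 UMIs (-0.60, -0.85 to -0.35) and 253 and 231 UMIs (-0.19, -0.46 to 0.07). Kdr, the receptor of VEGF, had 54 UMIs in each library, and Hey1, a Notch target, 36 and 28. Cxcl12, a chemokine, had 129 and 172 UMIs (0.35, 0.02 to 0.69), of which arterial-marker cells held 10 and 44. Among the remaining cells, which leave those out, Cxcl12 had 0.53 (0.15 to 0.91). In the stricter subset it had the opposite sign, -0.70.

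**Figure D4:**
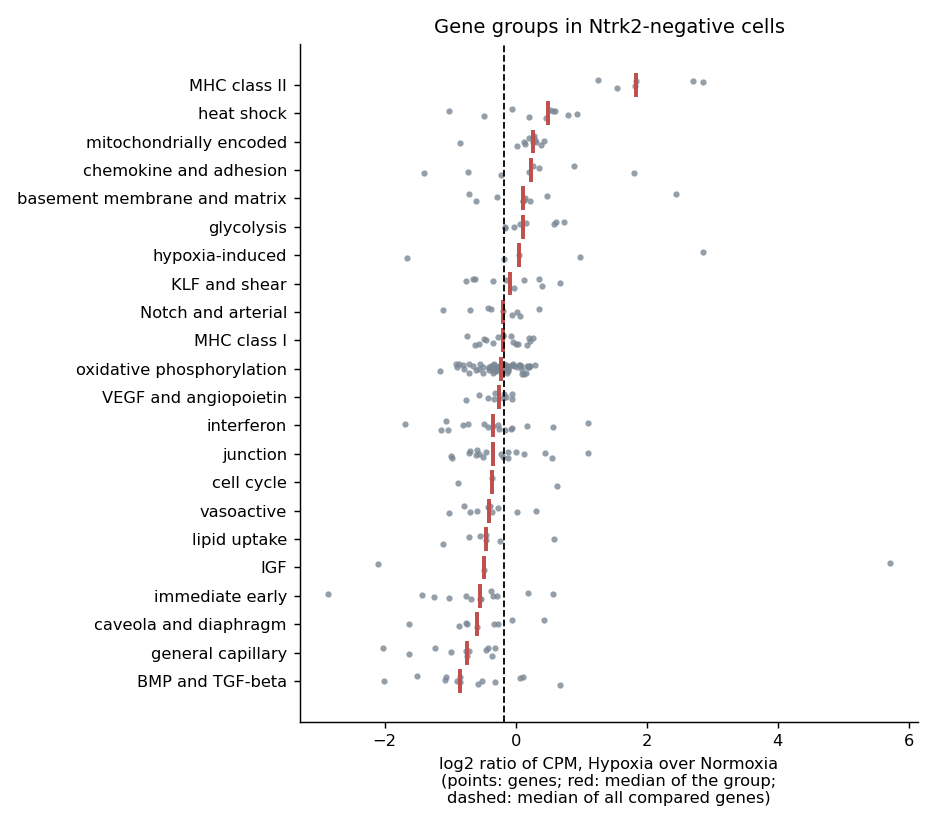
Each point is 1 gene with at least 40 UMIs, placed by its log2 ratio of Hypoxia over Normoxia CPM (horizontal axis) in its gene group (vertical axis); red lines are group medians and the dashed line is the median of all compared genes, -0.18; genes that the rule used are included. The 6 class II genes lie at 1.26 or above, and the median of BMP and TGF-beta genes, -0.84, lies farthest below the dashed line.

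The same contrast was set beside that in cells with an Ntrk2 UMI (13 Normoxia and 135 Hypoxia cells) and in aerocyte-like cells (30 and 42). Cd74, H2-Aa, H2-Ab1 and H2-Eb1 were higher in all 3. Cd74 had 3.11 (2.63 to 3.65) in Ntrk2-positive cells, from 34 and 2896 UMIs, and 5.63 (4.65 to 6.85) in aerocyte-like cells, from 8 and 816. Class II UMIs were uneven among the 42 Hypoxia aerocyte-like cells, with a median of 1.5 per cell. In 12 of them there were 0, and 1 cell held 335 of the 1523. Plvap was lower in all 3, with -1.70 (-2.30 to -1.06) and -2.41 (-3.25 to -1.62). Hpgd had -1.08 (-1.41 to -0.74) and -2.30 (-2.62 to -1.98). Sparcl1 had 3.61 (2.05 to 5.89) and 2.81 (2.00 to 3.74). The difference between the sets was not tested. The sets share the libraries, so the values are given side by side and no overlap is read from them.

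**Figure D5:**
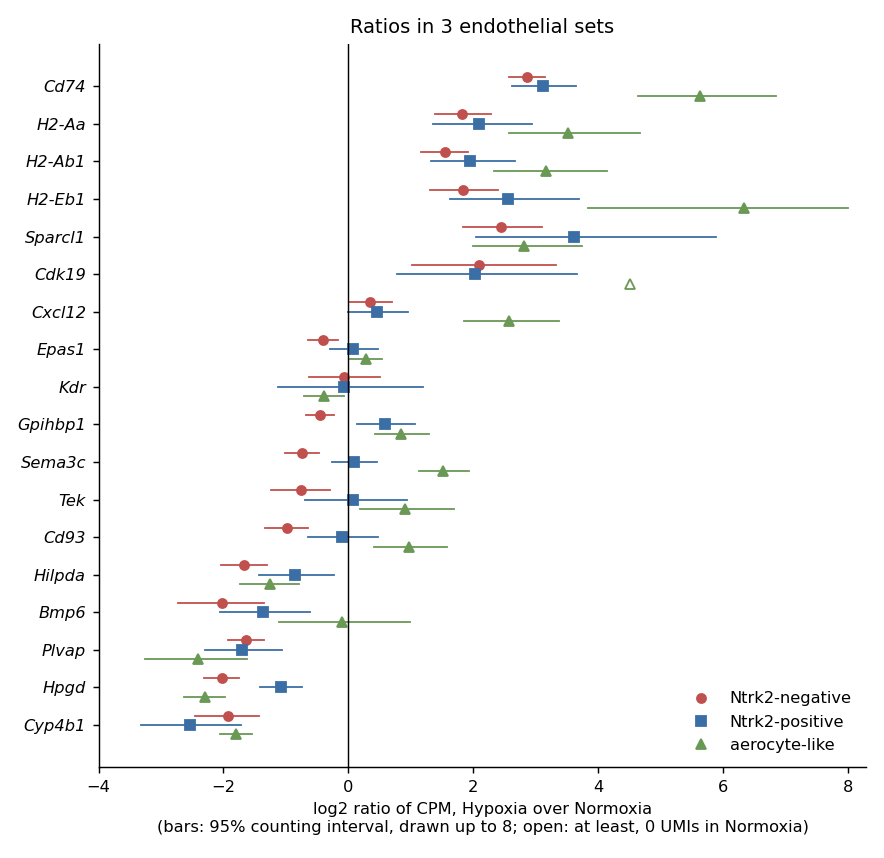
Points give the log2 ratio of CPM (horizontal axis) for each gene (vertical axis) in Ntrk2-negative cells (circles), Ntrk2-positive cells (squares) and aerocyte-like cells (triangles), with 95% counting intervals. Cd74 lies at 2.86, 3.11 and 5.63 and Plvap at -1.63, -1.70 and -2.41; Gpihbp1 lies at -0.45, 0.59 and 0.85.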

How the data were processed

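Mouse lung cells were profiled with the Chromium 3' v3.1 kit in 1 Normoxia and 1 Hypoxia library. Raw UMI counts for each gene and barcode are what the authors deposited. Cell Ranger 3.1.0 wrote the matrices per the file headers, and the submitters' processing notes name mm10 and Seurat.

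Cells were chosen by the detection rule given at the start of the results, and doublets were not removed. The members and gene lists were chosen with earlier results of these data known. UMIs were summed over members per library and divided by the total to give CPM. The log2 ratio has an exact conditional binomial interval, a sum an exact Poisson interval and a share an exact Clopper-Pearson interval, all at 95%. The limit set by a count of 0 is 3 counts, and ratios against 0 use that floor over the group. Calls are ratios of at least 2-fold among genes with 40 UMIs or more. UMIs collapse amplification copies, and intervals cover counting error only. No test was made, since cells are not replicates.

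The named genes were the 12 highest and 12 lowest ratios among genes with a mean CPM of at least 50, a UMI in at least 10% of cells of 1 library, an interval leaving out 0 and no single cell with 1 of every 3 UMIs or more in the library where it is higher, without mitochondrial, ribosomal protein, Gm, Rik, sex-linked and rule genes. The markers given with the cells and genes of the study were added. T cells for background had at least 3 of Cd3d, Cd3e, Cd3g, Trbc2 and Lck, none of 4 B cell genes and at most 1 panel gene. The ratio calculation was tested on simulated counts. Gene positions are from GENCODE M21 (GRCm38). Python 3 with numpy and scipy was used. Alternatives were other filters, panel minimums, scalings and UMI minimums. Leaving out the club-marker cell and taking the remaining cells were added once the data were known.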

Additional observations from a re-analysis of the deposited data

Results flagged for a closer look

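Several genes had opposite ratios in Ntrk2-negative cells and in a neighbouring set, with both counting intervals leaving out 0, with and without the club-marker cell. The difference itself was not tested, and 1 library per group stands behind each value. Gpihbp1 had -0.45 in the Ntrk2-negative cells, 0.59 (0.14 to 1.07) in Ntrk2-positive and 0.85 (0.43 to 1.29) in aerocyte-like cells. Among the remaining cells, under the marker minimums, Gpihbp1 had -0.04 (-0.28 to 0.20), an interval that holds 0. There the intervals of Cd93, Sema3c, Tek and Epas1, given below, stayed under 0. H2-D1, a class I heavy chain with close paralogs, had -0.46 and 0.28 (0.03 to 0.53) in Ntrk2-positive cells. Against aerocyte-like cells, Cd93 had -0.99 and 0.97 (0.40 to 1.58), Sema3c -0.74 and 1.52 (1.13 to 1.93), Tek, the angiopoietin receptor, -0.76 and 0.91 (0.18 to 1.69), and Epas1 -0.41 and 0.28 (0.02 to 0.54). Ifi27l2a went the other way, with 1.11 in the Ntrk2-negative and -1.87 (-2.61 to -1.16) in aerocyte-like cells, on 16 and 36 UMIs in the former.

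Barcodes that carried the endothelial panel but had mitochondrial shares above the 10% maximum were not analysed. There were 4 in Normoxia and 15 in Hypoxia.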

How the results depend on the processing

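No paired analysis was possible because each group had 1 library. Of 557 values that alternatives gave for 31 named genes, 538 kept the sign of the reported value. The 3 called genes that reversed did so in the strict capillary subset of 19 and 21 cells: Eln to -1.55, Hhex to 0.033 and Isg15 to 2.35. Among genes under 2-fold, Cxcl12 (-0.70), Epas1 (0.71), Hif1a, Kdr and Pecam1 also changed sign there, as did Hey1, Kdr and Pecam1 under other alternatives. The strict subset was itself chosen by general capillary, arterial, venous and lymphatic markers, Cxcl12 among them. There the higher and lower genes numbered 13 and 8 of 227, and the interferon and general capillary medians were 0.0014 and -0.19. Higher genes numbered 119 when Ntrk2 was not used, 66 when centred on the median, 66 with equal weight per cell, and 142 and 14 at minimums of 20 and 100 UMIs. Lower genes numbered 59 with at least 6 panel genes and 36 with 0 aerocyte genes. They also numbered 36 without cells with 2 or more markers of a non-endothelial class. They numbered 68 without the 50 most abundant genes, 53 when centred, and 286 and 27 at the 2 minimums. Without the club-marker cell they numbered 62, and in the remaining cells 54, where the interferon median was -0.069. The general capillary median was -0.34 with 0 aerocyte genes and -0.18 when Ntrk2 was not used. The member share was 44.1% and 23.1% with 0 aerocyte genes, and 24.7% in Hypoxia from 2000 UMIs up. The causes were not tested. Fewer genes or cells enter most of these alternatives. Depth (medians of 2192.5 and 2122 UMIs per cell) limits genes with few UMIs.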
